A study of Mus musculus with 9 samples.

Results

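The 10 genes described here are established targets of the transcription factor p53: Cdkn1a, Ccng1, Gadd45a, Bbc3, Pmaip1, Bax, Mdm2, Trp53inp1, Phlda3 and Gdf15. They were taken by gene symbol from a table of 55385 gene rows, in which each symbol had 1 row, so all 10 were found. The table comes from 9 libraries of ribosomal RNA-depleted total RNA from what the labels call the ischemic hemisphere of male C57BL/6 mice aged 8 to 10 weeks. Sham mice (3 libraries) had the neck surgery without occlusion. In the tMCAO group (3 libraries) a filament closed the right middle cerebral artery for 90 min and was then withdrawn, a model of stroke with reperfusion. The celastrol group (3 libraries) had the same occlusion and received the plant triterpenoid celastrol intraperitoneally at 4.5 mg/kg when reperfusion began. Neither an occluded group given vehicle nor a sham group given celastrol is among the samples analysed here. How long after reperfusion the tissue was taken, and whether each library is 1 mouse, is not stated in these sources. The p-values below therefore speak only to the spread among the 9 libraries, part of which may be technical.

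In resting cells p53 is kept low by Mdm2, a ubiquitin ligase that marks it for degradation and whose own gene p53 switches on. DNA damage, oxidative stress and other insults stabilise p53, which binds paired copies of a 10-base half-site in DNA and raises transcription of genes that halt the cell cycle, permeabilise mitochondria or dampen growth signals. In the ischemic brain p53 and its targets have long been studied in connection with neuronal death. Several of these genes, Cdkn1a, Gadd45a and Gdf15 among them, are also induced without p53 by other stress pathways.

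Cdkn1a, which encodes the cyclin-dependent kinase inhibitor p21, was the member with the clearest difference from sham. It lay 5.22-fold higher in tMCAO and 4.66-fold higher in celastrol libraries, and each of the 6 occluded libraries was above each sham library. Trp53inp1 was also above every sham library in all 6 occluded libraries, at 1.64-fold in tMCAO and 1.86-fold with celastrol. All 10 members had positive log2 fold changes in tMCAO against sham, as had 50.9% of all genes, with a median of 0.60 beside 0.01 over all 16982 genes tested. The log2 fold changes of Bax, Ccng1, Mdm2 and Gadd45a lay between 0.29 and 0.38, and those of the other 6 members between 0.59 and 5.19. None of the 10 members passed an adjusted p of 0.05 over all genes in edgeR's quasi-likelihood test, in which 0% of all genes passed in this comparison. At an unadjusted p under 0.05, 4 of 10 members were higher (Cdkn1a, Trp53inp1, Phlda3 and Gdf15), beside 8.56% of all genes, and 0 were lower, beside 6.36%. Gdf15 passed the filter on low values only through occluded libraries, which favours a difference from sham, and without it 3 of 9 were higher. In 6 of 10 members the tMCAO libraries were all above the sham libraries, beside 12.4% of all genes, and in 0 all below, beside 11.1%. Over 12 alternatives with other scalings, FPKM or 1 library left out, the number of members with separate groups ran from 4 to 8. DESeq2 called 2 members higher, Cdkn1a and Trp53inp1, beside 4.92% of all genes called in either direction, and limma on log2(FPKM + 0.5) called 0 members and 0% of all genes.

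**Figure D1:**
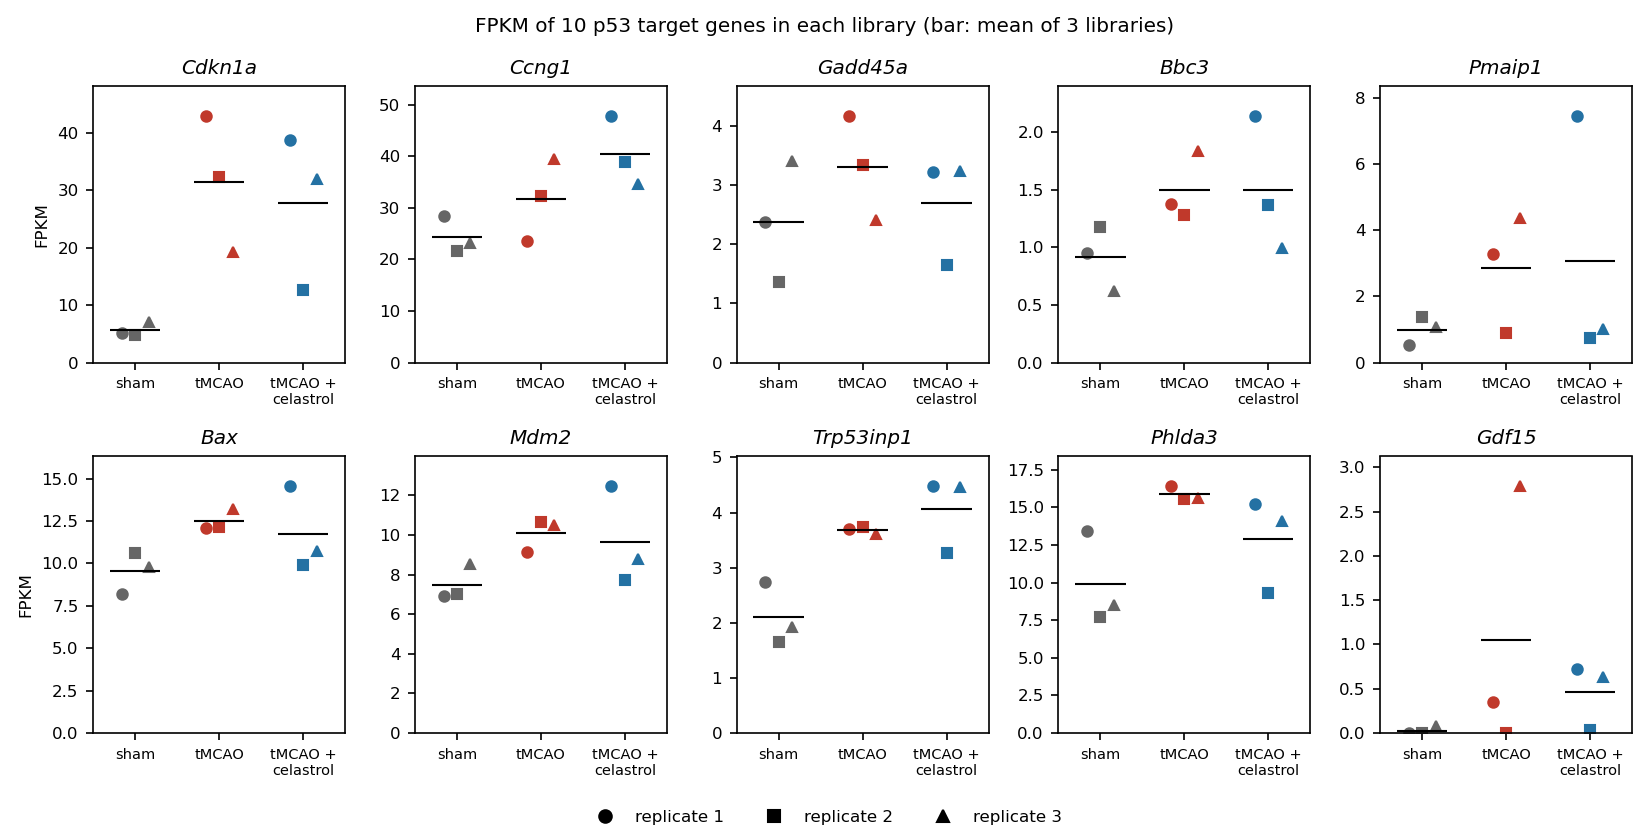
Expression of the 10 p53 target genes, in FPKM (fragment counts scaled by transcript length and library size, vertical axes, each starting at 0), in the 9 libraries; symbols mark the replicate number and bars the mean of 3 libraries. Cdkn1a sits between 4.76 and 7.13 in sham and between 12.6 and 42.9 in the 6 occluded libraries, and Pmaip1 reaches 7.47 in celastrol replicate 1.

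The reference promoters were searched for the p53 half-site, and the stretches that hold it are shown. Windows from RefSeq (build GRCm38.p6, 250 bases before to 50 after a start site) were matched by symbol for 8 of the 10 members, in 12 windows. The p53 half-site consensus, which reads the same on both strands, was searched by exact match. It occurred in 5 of 12 member windows, 1 each of Cdkn1a, Ccng1, Bax, Mdm2 and Gadd45a, and in 8.36% of all 32851 windows. A pair of half-sites up to 13 bases apart with at most 1 mismatch in all occurred in 3 of 12 member windows and in 1.09% of all windows. The stretches around these matches are written 5′ to 3′ on the strand of the gene, with the half-sites in capitals (the pair for Cdkn1a, Ccng1 and Bax, 1 of whose bases in Ccng1 and in Bax departs from the consensus).
Cdkn1a, plus strand, chr17:29090881-29090962: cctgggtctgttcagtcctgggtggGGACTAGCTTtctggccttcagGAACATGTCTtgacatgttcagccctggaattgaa
Ccng1, minus strand, chr11:40755437-40755506: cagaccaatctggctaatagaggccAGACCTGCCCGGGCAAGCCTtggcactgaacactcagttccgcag
Bax, minus strand, chr7:45467065-45467135: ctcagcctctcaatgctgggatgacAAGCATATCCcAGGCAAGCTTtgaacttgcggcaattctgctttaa
Mdm2, minus strand, chr10:117710910-117710969: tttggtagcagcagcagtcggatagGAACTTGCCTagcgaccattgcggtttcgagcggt
Gadd45a, minus strand, chr6:67037413-67037472: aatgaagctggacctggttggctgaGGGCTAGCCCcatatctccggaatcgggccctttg
In Cdkn1a the half-sites begin 73 and 51 bases upstream of the first of 2 RefSeq start sites. Directly after the second half-site follow 10 bases that make it a contiguous pair of 20 bases with 1 mismatch, GAACATGTCTTGACATGTTC, at chr17:29090928-29090947. Such a contiguous pair was found in 0.088% of all windows, among them those of Cdkn1a and Ccng1. It ends 2822 bases before the second Cdkn1a start site. A match describes letters in a window and is not a measurement of p53 binding.

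Among the genes of cell cycle arrest, Cdkn1a (ENSMUSG00000023067, mm10, chromosome 17, 29090976 to 29100727) had 20.5, 20.2 and 30.0 CPM (counts scaled to library size, with TMM factors) in sham replicates 1, 2 and 3. It had 169, 127 and 73.1 CPM in tMCAO and 148, 53.7 and 128 CPM with celastrol. The lowest occluded library, celastrol replicate 2, was still 2.28-fold over the sham mean, and the highest, tMCAO replicate 1, 7.16-fold. The log2 fold change was 2.38 ± 0.42 (SE) in tMCAO and 2.22 ± 0.42 (SE) in celastrol, each against the same sham libraries. The edgeR adjusted p was 0.0994 in the former and 0.146 in the latter. For the 6 occluded libraries as 1 group against sham it was 0.0769, where 0.0118% of all genes passed. Without celastrol replicate 2, whose values also enter the estimated spread, Cdkn1a passed in each of these 3 comparisons (adjusted p = 0.0309, 0.0368 and 0.0224), where 0.536%, 0.271% and 1.18% of all genes passed. It passed in no other fit with 1 library left out. Celastrol replicate 2 also stood apart over all tested genes. On their first principal component, the axis of largest spread (31.0% of the variance), it lay at −23.2. The sham libraries lay at −58.7 to −25.8 and the other occluded libraries at 17.0 to 58.1. Without sham replicate 2 the edgeR adjusted p of Cdkn1a was 0.408, 0.584 and 0.395, so the edgeR call depended on which library was left out. DESeq2 on all 9 libraries gave Cdkn1a an adjusted p of 1.66e-06, 1.71e-05 and 3.03e-08 in the same comparisons. It called 4.92%, 2.24% and 4.69% of all genes there.

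Per length of transcript, Cdkn1a stood in the middle of the members in sham and next to the top after occlusion. In sham, Ccng1 had the highest level at 24.4 ± 3.63 FPKM (SD, n = 3). It was followed by Phlda3 (9.89 ± 3.08), Bax (9.54 ± 1.22) and Mdm2 (7.48 ± 0.92), 3 neighbours whose ranges overlapped. Cdkn1a came next at 5.65 FPKM (4.76 to 7.13), and its highest library overlapped the lowest of Mdm2 (6.90). Below it lay Gadd45a (2.38 ± 1.03), Trp53inp1 (2.11 ± 0.56), Pmaip1 (0.99 ± 0.42) and Bbc3 (0.91 ± 0.28), with Gdf15 last at a median listed as 0.0001. Gadd45a and Trp53inp1 overlapped, as did Pmaip1 and Bbc3. In tMCAO libraries Cdkn1a reached 31.4 ± 11.9 FPKM, beside 31.8 ± 8.03 FPKM for Ccng1, and the pair overlapped. In celastrol libraries Ccng1 had 40.5 ± 6.75 and Cdkn1a 27.7 ± 13.5 FPKM (SD, n = 3 each), again with overlapping ranges.

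Ccng1 (chromosome 11, 40748552 to 40755311) encodes cyclin G1, a partner of protein phosphatase 2A that acts on Mdm2. It had 114, 90.6 and 96.0 CPM in sham, 91.4, 127 and 149 CPM in tMCAO and 181, 164 and 137 CPM with celastrol. Here the celastrol libraries were all above sham, while tMCAO replicate 1 lay within the sham range. The log2 fold change against sham was 0.29 ± 0.19 (SE) in tMCAO and 0.68 ± 0.19 in celastrol. Celastrol against tMCAO directly gave 0.39 ± 0.19, with an approximate 95% interval from −0.03 to 0.82 and an adjusted p of 0.976 in edgeR, so a difference between the occluded groups was not shown. Gadd45a (chromosome 6, 67035096 to 67037406), a small stress protein that binds Pcna and p21, had 4.82, 2.92 and 7.14 CPM in sham. Its values were 8.18, 6.59 and 4.58 CPM in tMCAO and 6.17, 3.53 and 6.43 CPM with celastrol. The 3 groups overlapped throughout, and 1 occluded library exceeded the highest sham library. Exons of E230016M11Rik on the other strand share 337 bases with Gadd45a, so its level is uncertain. The same holds for 273 bases of Cdkn1a shared with AC167363.2, since counting by strand is not stated.

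Among the death effectors, Bax (chromosome 7, 45461697 to 45466898), the pore-forming protein of the mitochondrial outer membrane, had 14.8, 20.04 and 18.3 CPM in sham, 21.1, 21.3 and 22.3 CPM in tMCAO and 24.8, 18.7 and 19.0 CPM with celastrol. The tMCAO libraries lay narrowly above sham, and 2 of 3 celastrol libraries lay within the sham range. Its log2 fold change in tMCAO was 0.29 ± 0.16 (SE). Exons of Gm45808 on the same strand share 192 bases with Bax.

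Bbc3 (chromosome 7, 16308393 to 16318205) encodes Puma, a BH3-only protein that releases Bax from its antagonists. It had 2.32, 3.02 and 1.57 CPM in sham, 3.27, 3.06 and 4.22 CPM in tMCAO and 4.92, 3.50 and 2.39 CPM with celastrol. The gap between the highest sham and the lowest tMCAO library was small (3.02 and 3.06 CPM), and celastrol replicate 3 lay inside the sham range. Pmaip1 (chromosome 18, 66458533 to 66465565) encodes Noxa, a BH3-only antagonist of Mcl1. It had 1.69, 4.48 and 3.46 CPM in sham, 9.93, 2.70 and 12.8 CPM in tMCAO and 22.0, 2.46 and 3.15 CPM with celastrol. Pmaip1 was high in 3 occluded libraries, tMCAO replicates 1 and 3 and celastrol replicate 1, and within the sham range in the other 3. Its log2 fold change against sham was 1.40 ± 0.89 (SE) in tMCAO and 1.52 ± 0.89 in celastrol. Without celastrol replicate 1 the celastrol value was −0.20.

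Mdm2 (chromosome 10, 117688875 to 117710758), the feedback inhibitor of p53, had 40.1, 42.6 and 51.3 CPM in sham, 51.4, 60.4 and 57.3 CPM in tMCAO and 68.4, 47.1 and 50.1 CPM with celastrol. The lowest tMCAO library and the highest sham library were almost level, and celastrol replicate 1 was the highest of all. Its log2 fold change was 0.33 ± 0.16 (SE) in tMCAO and 0.31 ± 0.16 in celastrol. Trp53inp1 (chromosome 4, 11156431 to 11174379) encodes a stress protein that promotes p53 phosphorylation and autophagy. It had 20.3, 12.9 and 14.8 CPM in sham, 26.5, 27.0 and 25.1 CPM in tMCAO and 31.3, 25.3 and 32.5 CPM with celastrol. The tMCAO libraries were close together (SD 0.99 CPM, n = 3, beside 3.87 in sham), and no occluded library reached down to the sham range. The log2 fold change was 0.71 ± 0.18 (SE) in tMCAO and 0.90 ± 0.18 in celastrol, with edgeR adjusted p of 0.172 and 0.184. DESeq2 gave an adjusted p of 0.0170 and 0.00139 for the same comparisons.

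Phlda3 (chromosome 1, 135766119 to 135769136) encodes a small pleckstrin homology protein that competes with the kinase Akt for membrane lipids. It had 23.9, 14.4 and 15.7 CPM in sham, 28.3, 27.1 and 26.1 CPM in tMCAO and 25.6, 17.4 and 24.7 CPM with celastrol. Phlda3 was the 1 member whose celastrol libraries all lay below the tMCAO libraries, beside 4.13% of all genes in that direction. For 0 members did they all lie above, beside 3.73%. The difference did not pass the test (log2 fold change −0.27 ± 0.22, SE, edgeR adjusted p = 0.976), and celastrol replicate 1 and tMCAO replicate 3 differed by little (25.6 and 26.1 CPM).

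Gdf15 (chromosome 8, 70629393 to 70632456) encodes a secreted stress cytokine of the TGF-beta superfamily that acts on a brainstem receptor. Its counts were 0, 0 and 10 in sham, 53, 0 and 358 in tMCAO and 104, 6 and 101 with celastrol. In CPM, tMCAO replicate 3 stood at 5.54 and no other library above 1.44. By counting error alone, a library listed at 0 could have held up to 3 counts. The fitted log2 fold change was 5.19 ± 2.07 (SE) in tMCAO. It was 2.67 without tMCAO replicate 3 and 10.2 without sham replicate 3, the 1 sham library with counts, so its size rests on single libraries. The 3 libraries through which Gdf15 passed the filter were tMCAO replicate 3 and celastrol replicates 1 and 3.

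**Figure D2:**
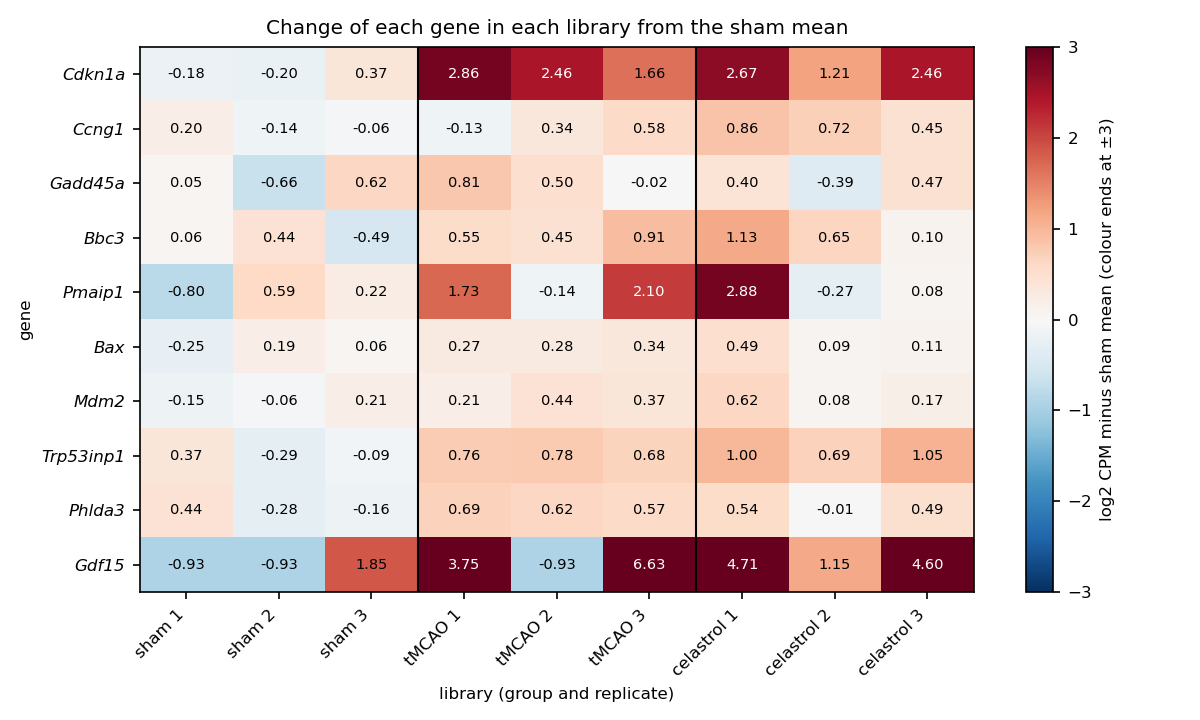
Change of each gene (rows) in each library (columns) from the mean of the sham libraries, in log2 CPM with a prior count of 2; red is above and blue below the sham mean, and the colour scale ends at ±3. Cdkn1a is 1.21 in celastrol replicate 2 and at least 1.66 in the other occluded libraries, and the Pmaip1 row is high in 3 occluded libraries only.

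The members did not share 1 order of libraries. Celastrol replicate 1 had the highest CPM of all 9 libraries for 5 members (Mdm2, Bbc3, Pmaip1, Bax and Ccng1), tMCAO replicate 1 for 3 (Cdkn1a, Gadd45a and Phlda3), and tMCAO replicate 3 and celastrol replicate 3 for 1 each (Gdf15 and Trp53inp1). Sham replicate 2 was the lowest for 5 members. In celastrol replicate 2 the median member lay 0.37 above the sham mean on the log2 CPM scale, and in celastrol replicate 1 0.93, with the other celastrol and the tMCAO libraries between 0.45 and 0.72. The tested genes whose change from the sham mean was most like that of Cdkn1a over the 9 libraries were Zfp36, Col5a3, Cebpd, Parp3 and Adamts1, with root mean square differences of 0.35 to 0.43 in log2 CPM. These genes are named for likeness of their values only. The nearest member, Trp53inp1, differed by 1.24 and ranked 619 of the 16982 genes.

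The 9 libraries are labelled as brain hemisphere. The neuronal markers Rbfox3, Snap25, Syt1 and Tubb3 summed to 4897 to 5647 CPM in sham, 3868 to 4772 in tMCAO and 3906 to 6453 with celastrol. Mean Tubb3 was lower in both occluded groups (309, 209 and 200 CPM in sham, tMCAO and celastrol), as were Syt1 and Snap25. Rbfox3 was lower in tMCAO only (213, 190 and 227). Markers of other cells and regions differed between the libraries. The 6 monocyte and macrophage markers summed to 2.87 to 4.09 CPM in sham, 21.9 to 84.0 CPM in tMCAO and 16.4 to 85.2 CPM with celastrol. Among them Msr1 (means 0.092, 19.3 and 13.5 CPM in sham, tMCAO and celastrol) and Cd14 (1.88, 21.8 and 25.6) differed most in CPM. Arg1 (0.033, 8.83 and 2.37) had the largest log2 fold change of the 6 in tMCAO against sham (7.88). Chil3 (0.093, 3.39 and 3.96) and Ccr2 (0.139, 2.34 and 0.533) were also higher in both occluded groups. Ly6c2 differed little (1.32, 1.39 and 1.95). The 4 astrocyte markers summed to 818 to 918 CPM in sham, 1390 to 2302 CPM in tMCAO and 1042 to 1858 CPM with celastrol. By far the largest difference among them was that of Gfap (means 164, 1225 and 843 CPM in the same order). Aldh1l1 was higher in both occluded groups (59.6, 82.7 and 83.0) and Aqp4 in tMCAO only (114, 129 and 109). Slc1a3 went the other way (533, 499 and 475), so the astrocyte sum does not describe its markers as a set. The 6 neutrophil markers summed to 6.73 to 7.85 CPM in sham, 19.1 to 22.0 in tMCAO and 18.5 to 32.8 with celastrol, and Ly6g was at 0 in every sham and tMCAO library and Cxcr2 in every sham library. The 4 lymphocyte markers summed to at most 0.46 CPM in any library. Celastrol replicate 2, with the lowest Cdkn1a of the occluded libraries, also had the lowest sums of monocyte (16.4 CPM) and astrocyte (1042 CPM) markers among them and the highest sum of neuronal markers of all libraries (6453 CPM). Celastrol replicate 1, highest for 5 members, had the highest sum of choroid plexus markers (1745 CPM, beside 6.08 to 475 in the other 8). The part of these cells in the members' differences was not tested. In bulk RNA, more cells of a type and more RNA per cell cannot be told apart.

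The second question of the design is whether celastrol changed these genes after occlusion. Their levels with celastrol and without it overlapped for 9 of 10 members. Over all genes, 3.73% lay wholly higher and 4.13% wholly lower with celastrol, so overlap was usual for any gene. The median log2 fold change of celastrol against tMCAO was −0.04, with 4 members positive and 6 negative (49.3% of all genes were positive). It was −0.32 without celastrol replicate 1. None of the 10 passed in edgeR, where 0% of all genes passed, in DESeq2 (0.106%) or in limma (0%), and 0 reached an unadjusted p under 0.05, which 2.25% of all genes reached upward and 1.86% downward. For Cdkn1a the log2 fold change was −0.17 with an approximate 95% interval from −1.07 to 0.74, so between about 0.74 higher and 1.07 lower on the log2 scale was compatible with these libraries. The intervals were narrower for Bax (−0.42 to 0.31) and Mdm2 (−0.40 to 0.34), and wider for Pmaip1 (−1.84 to 2.08). For Cdkn1a, Mdm2, Bbc3, Pmaip1, Bax and Gdf15 the sign turned in at least 1 alternative fit.

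Against sham, the celastrol libraries gave the members a median log2 fold change of 0.66 (0.28 without celastrol replicate 1), with all 10 positive, beside 50.4% of all genes, and 0 called by edgeR, beside 0.00589%. DESeq2 called 2 members, Cdkn1a and Trp53inp1, beside 2.24% of all genes, and limma 0. At an unadjusted p under 0.05, 3 members were higher, beside 5.69% of all genes, and 0 lower, beside 2.81%. All celastrol libraries were above sham for 3 of 10 members (Cdkn1a, Trp53inp1 and Ccng1), beside 7.89% of all genes, and below for 0, beside 5.54%. This comparison shares its sham libraries with that of tMCAO, so both sets of values are given side by side and are not independent. In the 6 occluded libraries together, 2 of 10 members lay wholly above sham (Cdkn1a and Trp53inp1), beside 4.2% of all genes, and 0 wholly below, beside 2.53%. There edgeR called 0 members, limma 0 (0.0177% of all genes) and DESeq2 the same 2 (4.69%). At an unadjusted p under 0.05, 5 members were higher, Gdf15 among them (8% of all genes), and 0 lower (5.39%). All 10 log2 fold changes were positive, beside 50.3% of all genes.

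**Figure D3:**
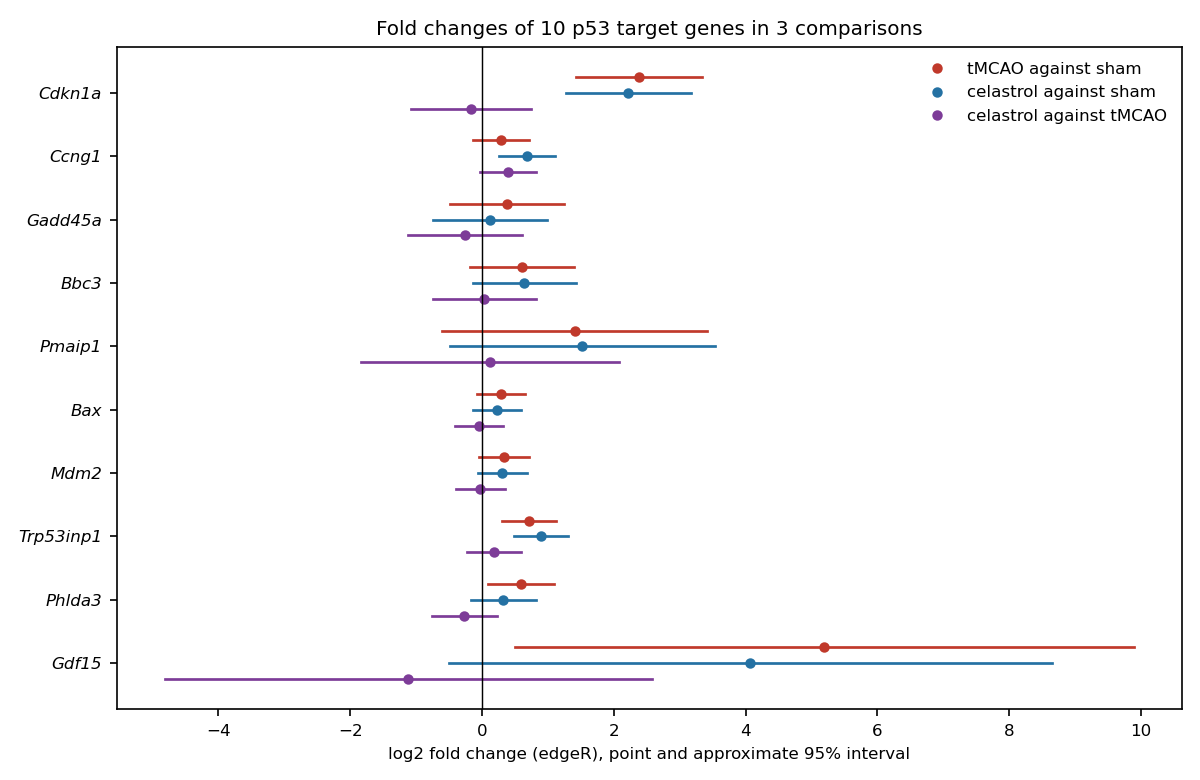
Log2 fold change (horizontal axis, edgeR) of the 10 genes in 3 comparisons, as points with approximate 95% intervals. The intervals of Cdkn1a and Trp53inp1 lie above 0 in both comparisons with sham, and every interval of celastrol against tMCAO spans 0.

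The gene for p53 itself, Trp53, had 15.5, 18.6 and 19.1 CPM in sham, 22.3, 25.5 and 23.5 CPM in tMCAO and 27.9, 16.2 and 20.9 CPM with celastrol. The tMCAO libraries were above sham and the celastrol libraries overlapped both. Its log2 fold change in tMCAO was 0.42 ± 0.20 (SE, edgeR adjusted p = 0.358). Since p53 is controlled largely through protein stability, its mRNA does not report its activity. Of 18 genes in a list of p53 and its regulators, 13 were tested and 0 were called by edgeR in tMCAO against sham (median log2 fold change −0.03). At an unadjusted p under 0.05, 0 were higher, beside 8.56% of all genes, and 1 was lower, beside 6.36%, which is near the background, and DESeq2 called 1, beside 4.92%. The acetyltransferase gene Kat5 had the smallest p of that list. It went from 51.4 ± 2.11 to 37.7 ± 4.15 CPM (SD, n = 3 each), with 48.8 ± 5.13 CPM in celastrol libraries, an edgeR adjusted p of 0.190 in tMCAO against sham and a DESeq2 adjusted p of 0.0219. The damage kinase gene Atm had a log2 fold change of −0.28 ± 0.17 (SE) and overlapping groups.

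Of 40 other p53 targets in a list, 36 were tested, 0 were called by edgeR and 4 by DESeq2 (Tnfrsf12a, Gtse1 and Fas among them), beside 0% and 4.92% of all genes. In tMCAO 8 of the 36 were higher at an unadjusted p under 0.05 (8.56% of all genes) and 2 lower (6.36%), with a median log2 fold change of 0.14. Celastrol against sham gave 8 higher (5.69% of all genes) and 0 lower (2.81%) with a median of 0.25. Gtse1, counted in both comparisons, passed the filter only through occluded libraries (at most 0.10 FPKM in sham), which favours a difference from sham. Celastrol against tMCAO gave 3 higher (2.25% of all genes) and 1 lower (1.86%) with a median of 0.07. Tnfrsf12a and Fas were among the 3 with the smallest p, none of which passed in edgeR. Tnfrsf12a, the receptor of the cytokine TWEAK, had 1.99 ± 0.72 CPM in sham, 11.5 ± 1.08 in tMCAO and 5.45 ± 3.44 with celastrol (SD, n = 3 each). Its celastrol libraries (8.72, 1.86 and 5.78 CPM) were all below the tMCAO libraries (12.5, 11.6 and 10.3 CPM), with a log2 fold change of −1.07 ± 0.50 (SE) and an edgeR adjusted p of 0.976. Celastrol replicate 2 lay within the sham range for Tnfrsf12a (1.17 to 2.54 CPM), and it was also the lowest occluded library for Cdkn1a. The death receptor gene Fas had a log2 fold change of 1.35 ± 0.36 (SE) in tMCAO and 1.08 ± 0.36 in celastrol, with all 6 occluded libraries above sham.

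Around the death effectors, 23 of 24 Bcl-2 family and caspase genes were tested, with 0 called by edgeR, 4 by DESeq2 (Bcl2 lower, and Bcl2a1b, Birc3 and Mcl1 higher), and a median log2 fold change of 0.22 in tMCAO. DESeq2 called 4.92% of all genes. At an unadjusted p under 0.05, 4 of the 23 were higher, beside 8.56% of all genes, and 1 was lower, beside 6.36%. Bcl2, which restrains Bax, had 29.8 ± 8.18 CPM in sham, 16.8 ± 1.96 in tMCAO and 20.02 ± 2.09 with celastrol (SD, n = 3 each). In CPM all 6 occluded libraries lay below sham. In FPKM Bcl2 overlapped, with 2.16 in the lowest sham and 2.18 in the highest celastrol library. Its log2 fold change was −0.83 ± 0.20 (SE) in tMCAO, with an adjusted p of 0.153 in edgeR and 0.0082 in DESeq2. Bcl2a1b, a survival gene of leukocytes with near-identical copies among which reads may be split, went from 0.560 ± 0.170 to 4.78 ± 2.06 CPM (SD, n = 3 each), and Birc3 had a log2 fold change of 1.48 ± 0.40 (SE). Among cyclins, their kinases and inhibitors, 19 of 22 genes were tested, with 0 called by edgeR, 3 by DESeq2 (Cdk6, Gadd45b and Gadd45g), beside 4.92% of all genes, and a median of 0.23. At an unadjusted p under 0.05, 5 of the 19 were higher, beside 8.56% of all genes, and 0 lower, beside 6.36%. Of these 5, Cdk6 and Cdk2 passed the filter on low values only through occluded libraries, which favours a difference from sham. Their highest sham values were 0.31 and 0.43 FPKM. Cdk6, a kinase of the G1 phase, went from 4.32 ± 0.85 CPM in sham to 8.47 ± 2.61 in tMCAO and 9.20 ± 1.22 with celastrol (SD, n = 3 each). The paralogs of Gadd45a differed from sham by more than Gadd45a itself: Gadd45b had a log2 fold change of 1.64 ± 0.47 (SE) and Gadd45g 1.59 ± 0.49 in tMCAO, beside 0.38 ± 0.38 for Gadd45a. The difference between these paralogs was not tested.

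**Figure D4:**
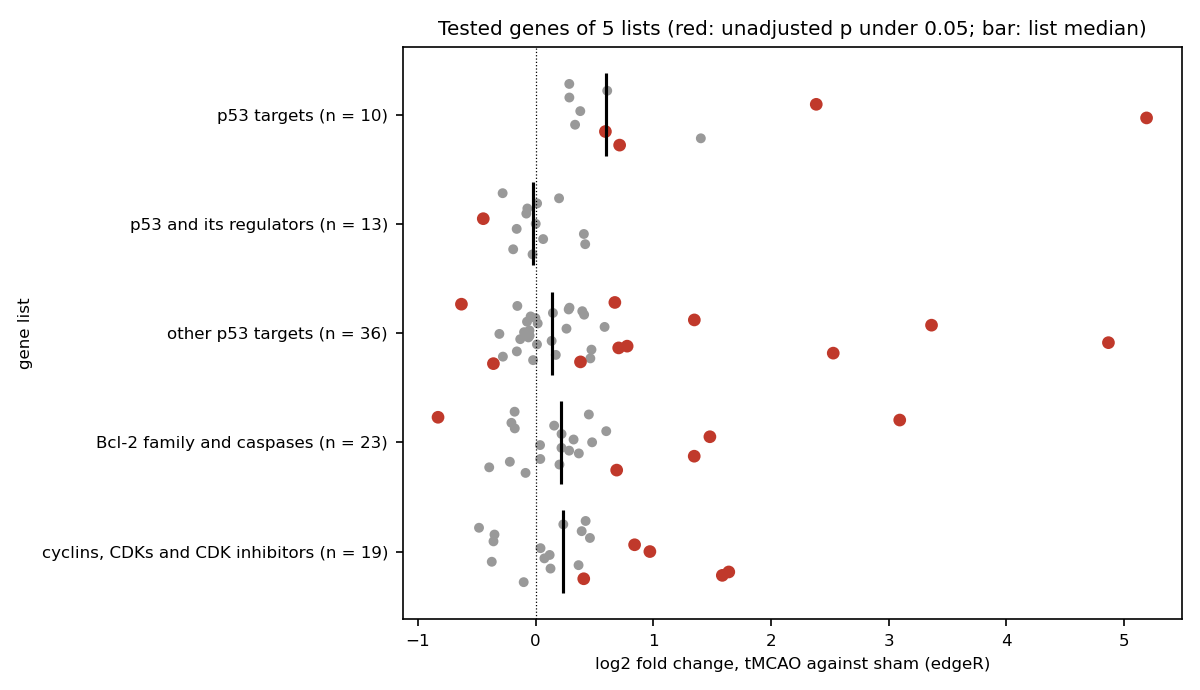
Log2 fold change in tMCAO against sham (horizontal axis, edgeR) of the tested genes of 5 lists (vertical axis), with larger red points for an unadjusted p under 0.05 and a bar at each list's median. The medians are 0.60 for the 10 p53 targets and between −0.03 and 0.23 for the other 4 lists.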

How the data were processed

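The tools named per the submitters' processing notes are StringTie 1.3.4d, HISAT2 2.0.4, cutadapt 1.9, DESeq2 and edgeR, and the build is mm10. Their settings and any use of strand are not stated there. The authors deposited 1 table with an estimated count, written as a whole number, and an FPKM value per gene and library. Library totals lay between 60392960 and 75158625 estimated counts. The 10 members and all gene lists were chosen with earlier results of these data known.

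Genes reaching 0.5 FPKM in 3 or more libraries were kept (16982, all 10 members among them). The 9 libraries entered 1 fit with 1 mean per group in edgeR 4.0.16 (R 4.3.3, TMM, glmQLFit and glmQLFTest, two-sided), with Benjamini-Hochberg adjustment over all genes and a threshold of 0.05. The script was checked on simulated counts. The SE was derived from F (log2 fold change over its square root), and intervals use it, so both are approximate. DESeq2 1.42.0 and limma 3.58.1 were alternatives. Named genes are the members, Trp53, the 3 genes with the smallest p in tMCAO against sham in each list without a call, and the 5 genes nearest to Cdkn1a. Genes named beside a DESeq2 count are among those it called. Cdk2 is named for the filter on low values only. One gene that this rule names is not reported here. Coordinates are those of the deposited table.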

Additional observations from a re-analysis of the deposited data

How the results depend on the processing

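The median of the 10 members in tMCAO against sham stayed between 0.50 and 0.73 in all 20 alternatives. Counts of called members depended on the tool. With DESeq2, 2 members were called in tMCAO, in celastrol and in both occluded groups against sham. DESeq2 also called 1 of the p53 regulators, 4 other p53 targets, 4 Bcl-2 family and caspase genes and 3 cyclin genes in tMCAO against sham, beside 4.92% of all genes. The tested genes of these lists numbered 13, 36, 23 and 19. In celastrol against sham it called 3, 1 and 1 of the last 3 lists, beside 2.24% of all genes. In both occluded groups it called 5, 3 and 3, beside 4.69%. With limma on log2(FPKM + 1) the median of celastrol against sham was 0.43. Leaving out 1 library gave 0 to 1 called members in each comparison with sham and 0 in celastrol against tMCAO. The medians ran from 0.52 to 0.73 (tMCAO against sham), −0.32 to 0.072 (celastrol against tMCAO), 0.28 to 0.80 (celastrol against sham) and 0.45 to 0.67 (both occluded groups). Members with separate groups numbered 6 to 8, 1 to 3, 3 to 5 and 2 to 4 in the same order. Leaving out a library can only keep or raise these counts. Over all 12 alternatives, other scalings and FPKM included, the count in tMCAO against sham ran from 4 to 8. Shares over all genes are given for the main setting only. Called genes of the lists numbered 0 to 2 (other p53 targets) and 0 to 1 (Bcl-2 family) in tMCAO, 0 to 1 (other p53 targets) in celastrol, and 0 to 3 and 0 to 2 in both occluded groups, each against sham. The fit with most calls over all genes, without celastrol replicate 2, called 0.536%, 0.271% and 1.18% of them in these comparisons.

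In celastrol against tMCAO, Bbc3 turned to −0.028, −0.045 and −0.018 and Pmaip1 to −0.25, −0.35 and −0.18 in limma with pseudocounts of 0.5, 0.1 and 1. With 1 library left out, log2 fold changes in this comparison ran from −0.44 to 0.16 for Cdkn1a, −0.22 to 0.073 for Mdm2, −0.26 to 0.26 for Bbc3, −1.60 to 0.57 for Pmaip1, −0.20 to 0.020 for Bax and −1.71 to 1.40 for Gdf15. Against sham they ran from −0.20 to 1.97 for Pmaip1 in celastrol, and for Gadd45a from −0.15 to 0.47 in celastrol and −0.021 to 0.61 in both occluded groups. The cause of these turns was not tested. With an FPKM of at least 1, Gdf15 was not tested.

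Replicate numbers are shared by the groups. Deviations of same-numbered libraries had low correlations (−0.16 to 0.20), and 4 of 9 libraries were closest to their own number. With the replicate block edgeR called 0 members in each of the 4 comparisons and 51 genes in place of 0 in tMCAO against sham (48 higher and 3 lower). It called 21 genes higher and 1 lower in celastrol against sham, and 59 and 5 in both occluded groups against sham. Without the block it called 1 and 2 genes there. In celastrol against tMCAO with the block, Bbc3 was −0.032, Pmaip1 −0.17 and Gdf15 0.40. At this depth Gdf15 rests on few counts in sham (0, 0 and 10).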
